A study of Homo sapiens with 12 samples.

Results

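The genes described here are 41 interferon-stimulated genes, taken by symbol from a fixed list out of the 60583 genes in the count tables. All 41 symbols were found. They comprise 3 sensors of viral RNA, 4 transcription factors of the interferon response, the IFIT, OAS and IFITM families, the Mx proteins and other direct antiviral effectors, the ISG15 conjugation system, the PARP9 and DTX3L pair, 7 other interferon-stimulated genes and 1 chemokine. The assay was TT-seq, a measure of nascent transcription: new RNA carries 4-thiouridine, which after fragmentation is biotinylated, so that recently made pieces can be pulled down for sequencing.

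The 12 libraries came from U2OS, a human osteosarcoma cell line, and fell into 4 groups of 3. U2OS cells were transfected with a control siRNA (siCtrl) or with an siRNA against INTS11 (siINTS11), the subunit of the Integrator complex that cleaves nascent RNA, and were collected 48 h after transfection. U2OS-AsiSI cells carried AsiSI-ER, the restriction enzyme AsiSI fused to the hormone-binding part of the oestrogen receptor, received the same siRNAs for 48 h and were given 4-hydroxytamoxifen (OHT) for 1 h. OHT lets the fusion protein enter the nucleus and cut DNA. Both siRNA groups of U2OS-AsiSI therefore carried the nuclease and had OHT, no OHT is given in the labels of the U2OS groups, and the labels name no interferon treatment. A comparison between the lines joins line, nuclease and OHT.

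Interferons are secreted proteins made when a cell senses foreign nucleic acid, for example through the RNA sensors RIG-I and MDA5. Type I interferon binds the receptor IFNAR, whose kinases JAK1 and TYK2 phosphorylate STAT2 and other factors. STAT2 acts with IRF9 in a complex that binds the interferon-stimulated response element (ISRE) in promoters, while a second element, the gamma-activated site (GAS), is known above all from the answer to interferon gamma. The genes so induced block viral entry, translation and replication, and several of them also have a basal level without interferon.

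The promoters of these genes are known for the ISRE and GAS, so both were looked for in RefSeq promoter windows (GRCh38.p14, 250 bases before to 50 bases after the start), which were matched for 34 of the 41 genes. No window was matched for IRF7, IFIT2, OAS2, OASL, IFITM2, MX2 or USP18. The ISRE core, GAAA, any 2 bases and GAAA again, searched on both strands, was present in 22 of 34 windows (64.7%), against 1255 of 35116 windows in the whole table (3.57%). The GAS core, TTC, any 3 bases and GAA, which reads the same on both strands in its fixed letters, was present in 9 of 34 (26.5%), against 7.66% of all windows. The 2 motifs can overlap, as they do in BST2, EPSTI1 and IFI27. A match describes the letters and does not show that a factor binds there. The 6 sites below belong to genes that were higher after siINTS11 in both lines, and are shown 5′ to 3′ on the gene's own strand with the motif in capitals, so that an ISRE core on the other strand appears as TTTC, 2 bases and TTTC.

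OAS3: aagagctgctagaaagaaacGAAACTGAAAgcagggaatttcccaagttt
IFI6: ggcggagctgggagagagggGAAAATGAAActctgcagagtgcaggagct
IFIT3: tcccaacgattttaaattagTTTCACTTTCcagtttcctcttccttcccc
GBP1: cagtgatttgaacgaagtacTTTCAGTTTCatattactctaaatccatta
SAMD9: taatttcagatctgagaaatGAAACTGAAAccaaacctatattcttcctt
IRF1: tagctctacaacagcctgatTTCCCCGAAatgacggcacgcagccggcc

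The first base of the motif lies at position -143 from the start in OAS3 (chr12:112938311-112938360, plus strand), -156 in IFI6 (chr1:27672319-27672368, minus strand), -122 in IFIT3 (chr10:89327855-89327904, plus strand), -127 in GBP1 (chr1:89065306-89065355, minus strand) and -136 in SAMD9 (chr7:93118086-93118135, minus strand). In IRF1 the capitals mark a GAS core at -124 (chr5:132490869-132490917, minus strand), and its window held no ISRE core. The next 4 sites belong to genes that were not higher in either line, or that had no more than 1 read in any library, and carry the same kind of motif.

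ISG15: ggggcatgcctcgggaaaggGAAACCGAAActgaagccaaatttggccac
IFITM3: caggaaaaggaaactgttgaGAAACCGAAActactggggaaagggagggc
IFIT5: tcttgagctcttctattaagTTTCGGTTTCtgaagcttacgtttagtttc
IFI27: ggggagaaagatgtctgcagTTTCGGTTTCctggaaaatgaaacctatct

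These lie at -107 in ISG15 (chr1:1013370-1013419, plus strand), -35 in IFITM3 (chr11:320866-320915, minus strand), -45 in IFIT5 (chr10:89414503-89414552, plus strand) and -108 in IFI27 (chr14:94110608-94110657, plus strand). The ISRE core was in 6 of 8 windows of genes higher in both lines, in 4 of 5 of genes higher in 1 line only, in 6 of 12 of genes tested but higher in neither, and in 6 of 9 of genes that were not tested. These shares rest on few windows and were not tested against each other. The 12 genes tested but higher in neither include PARP9, whose window (chr3:122564735-122565034) held no ISRE core. That window does not include the start of PARP9 as counted (chr3:122564577, minus strand).

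Of the 41 genes, 30 had enough reads to be tested in U2OS and the same 30 in U2OS-AsiSI. OAS1, OAS2 and EPSTI1 were near-silent, defined as a mean count under 10 in each group: over the 12 libraries together they had 74, 23 and 33 reads. OAS1 and OAS2 encode oligoadenylate synthetases, and OAS1 ranged from 0 to 14 reads in a library. IRF7, BST2, HERC5, IFI27, XAF1 and CXCL10 were silent, defined as no library above 3 reads. IRF7, the factor that amplifies interferon production, had 0 reads in 12 libraries, which allows up to 0.0848 to 0.132 counts per 1000000 (CPM) in a library, by the limit of 3 counts that a count of 0 permits. BST2, which tethers budding virus, and HERC5, the ligase for ISG15, had 10 reads each in all. XAF1, a proapoptotic gene, had 14, and IFI27 and the chemokine gene CXCL10 had 1 each.

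IRF9 and IFITM1 also had 0 reads in every library, but in their case the counting leaves nothing to be read from it. IFITM1 lies wholly within the annotated span of IFITM2 on the same strand, and all but 113 bases of IRF9 are covered by the same-strand gene AL136295.5. Of 567 protein-coding genes that are nested in 1 same-strand gene, 567 had 0 reads in 12 libraries (100%), against 1096 of 13222 without such an overlap (8.3%). Of 945 nested in a gene of the opposite strand only, 173 were at 0 (18.3%). Their median total was 45 reads, against 2649 for genes without same-strand overlap. The cause of that gap was not tested, but an opposite-strand neighbour did not remove all reads. Reads in regions shared by same-strand genes were thus not assigned, IRF9 and IFITM1 were not measured, and IFITM2 and IFITM3 were measured over 5875 of 7642 and 6728 of 7862 bases. The plot of counts for all 41 genes shows this division.

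**Figure D1:**
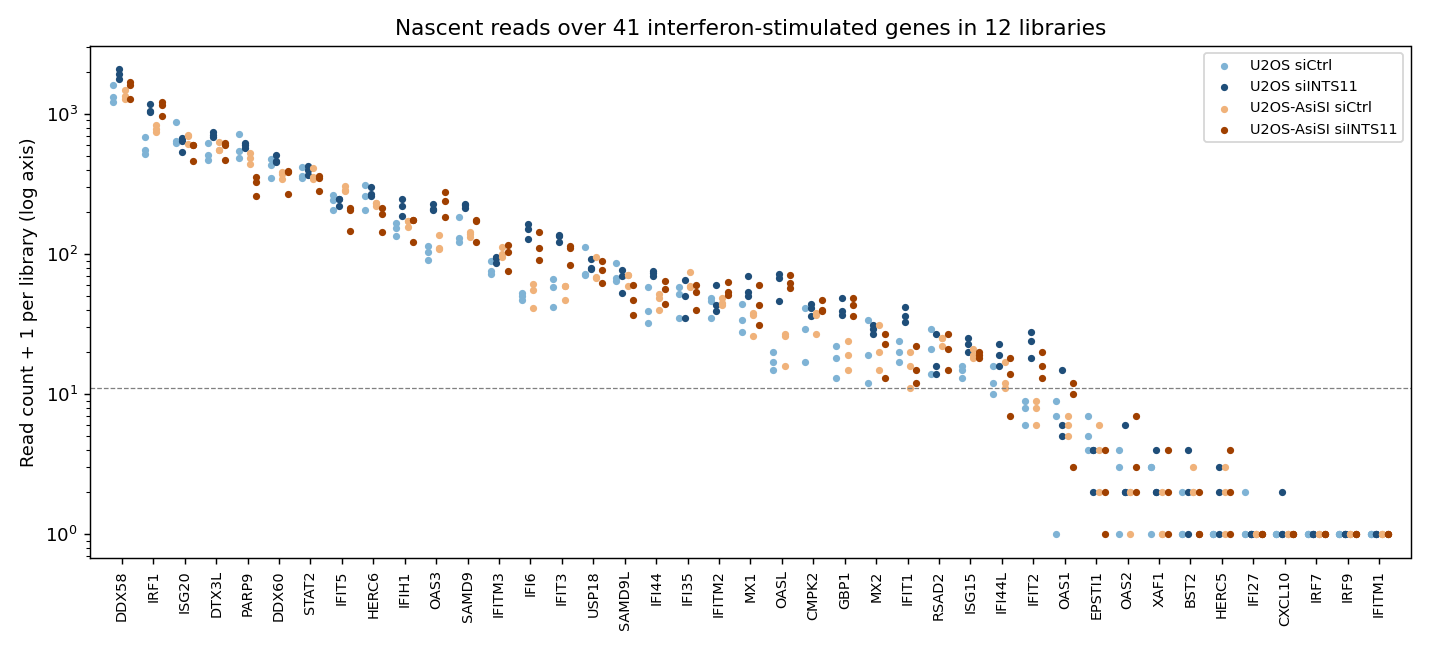
Read count plus 1 in each of the 12 libraries (log axis) for all 41 genes, ordered by mean count. Points are single libraries, coloured by group, and the dashed line marks a count of 10. DDX58 and IRF1 are highest, and 11 genes lie mostly or wholly below the line, IRF9 and IFITM1 among them because their reads could not be assigned.

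Depth ran from 20704611 to 38065726 counts per library, and the lowest was 1 of the U2OS-AsiSI siINTS11 libraries. CPM values below are scaled over all 12 libraries by the trimmed mean of M-values (TMM), and fold changes come from edgeR's quasi-likelihood fit to the 6 libraries of each comparison. INTS11 itself gave 9.69 ± 0.70 CPM (SD, n = 3) under siCtrl and 7.37 ± 0.426 CPM under siINTS11 in U2OS (log2 fold change -0.42, SE 0.09, edgeR adjusted p = 6.1e-05), and 10.2 ± 0.736 against 9.28 ± 0.242 CPM in U2OS-AsiSI (-0.13, SE 0.08, adjusted p = 0.172). Nascent reads over the gene do not measure its mature RNA or protein. As to cell identity, RUNX2, COL1A1, SPARC and VIM were well covered, SP7 and IBSP were near-silent, and HBB and CD3E were at 0 or 1 read in all. COL1A2 had only 2 to 13 reads per library. BGLAP lies within the same-strand gene PMF1-BGLAP and could not be counted. The 7 leukocyte markers summed to 2.01 to 2.19 CPM in U2OS siCtrl, 3.44 to 3.93 in U2OS siINTS11, 2.22 to 2.92 in U2OS-AsiSI siCtrl and 3.39 to 3.70 in U2OS-AsiSI siINTS11, most of it from ITGAM. The part of that shift in the results below was not tested. The epithelial sum was likewise higher after siINTS11, at 100.9 to 107.1 against 84.8 to 90.7 CPM in U2OS and 124.2 to 136.3 against 93.3 to 103.4 CPM in U2OS-AsiSI, most of it KRT8 and KRT18. The 10 osteosarcoma and osteoblast markers summed to less after siINTS11, at 652 to 698.1 against 896.1 to 944.7 CPM in U2OS and 584.2 to 642.3 against 771.3 to 783.5 CPM in U2OS-AsiSI. Within them RUNX2 fell (log2 -0.84 and -1.07) while ALPL (1.47 and 1.31) and SPP1 (2.41 and 2.14) rose. The part of these shifts in the results was not tested either. In these bulk libraries, more transcription in every cell and a larger share of transcribing cells cannot be told apart.

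Per kilobase of gene, the highest basal level in U2OS siCtrl was that of IRF1, at 2.11 CPM per kb, followed by DTX3L at 1.61, IFIT5 at 1.22 and ISG20 at 1.14. STAT2 (0.665), DDX58 (0.643) and PARP9 (0.518) came next; within this order IFIT5 and ISG20, and STAT2 and DDX58, differ by less than their spread. At the low end of the tested genes were IFIT2 at 0.00857, MX2 at 0.0139 and IFI44L at 0.0145 CPM per kb. The scale divides by the full span. Only 17217 of 25578 bases of IFIT2 could be counted, so its value is understated, as are those of other genes with same-strand overlap. The VIM gene, a mesenchymal marker, stood at 14.7 on the same scale. No tested gene of the list averaged more than 0.0974 reads per base, the value of IRF1.

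After siINTS11, 14 of the 30 tested interferon-stimulated genes rose and 1 fell in U2OS, and 12 rose and 2 fell in U2OS-AsiSI (edgeR, Benjamini-Hochberg adjusted p under 0.05 over all genes tested). Over all genes tested, 34.5% were higher and 32.4% lower in U2OS, and 35.4% higher and 32.6% lower in U2OS-AsiSI. Of the 12 rises in U2OS-AsiSI, those of CMPK2, IFITM2, MX1 and SAMD9 were lost in some alternatives. At a rise of at least 2-fold the list had 5 of 30 genes in U2OS and 6 of 30 in U2OS-AsiSI, against 9.62% and 9.73% of all genes. Its median log2 fold change was 0.40 in U2OS, beside 0.02 over all genes, and 0.12 in U2OS-AsiSI, beside 0.03. The U2OS-AsiSI median is smaller than the SD of 0.17 that the library medians give it, was 0.09 to 0.23 with 1 library left out (0.23 without siCtrl replicate 2), and on library totals was 0.31, beside 0.59 in U2OS. IFIT2 passed the count filter only through the siINTS11 libraries, where it is high, so it had to differ. Without it, an alternative chosen after seeing the data, 13 of 29 genes rose in U2OS and 11 of 29 in U2OS-AsiSI, 4 and 5 of them by at least 2-fold, with medians of 0.39 and 0.12.

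The genes that rose in both lines were DDX58, GBP1, IFI6, IFIT2, IFIT3, IRF1, MX1, OAS3, OASL and SAMD9. That is 10 of 30, or 9 of 29 without IFIT2, against 28.5% of all genes (5742 of 20121). The 2 siINTS11 comparisons share no libraries. With library totals in place of TMM, the median over all genes moved to 0.22 in each line, and the split of all genes called went from 7140 higher and 6706 lower to 10968 and 3799 in U2OS, and from 7236 and 6657 to 10550 and 4024 in U2OS-AsiSI. The list then had 22 higher and 0 lower in U2OS and 16 higher and 2 lower in U2OS-AsiSI, so small changes below are relative to the TMM scale.

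**Figure D2:**
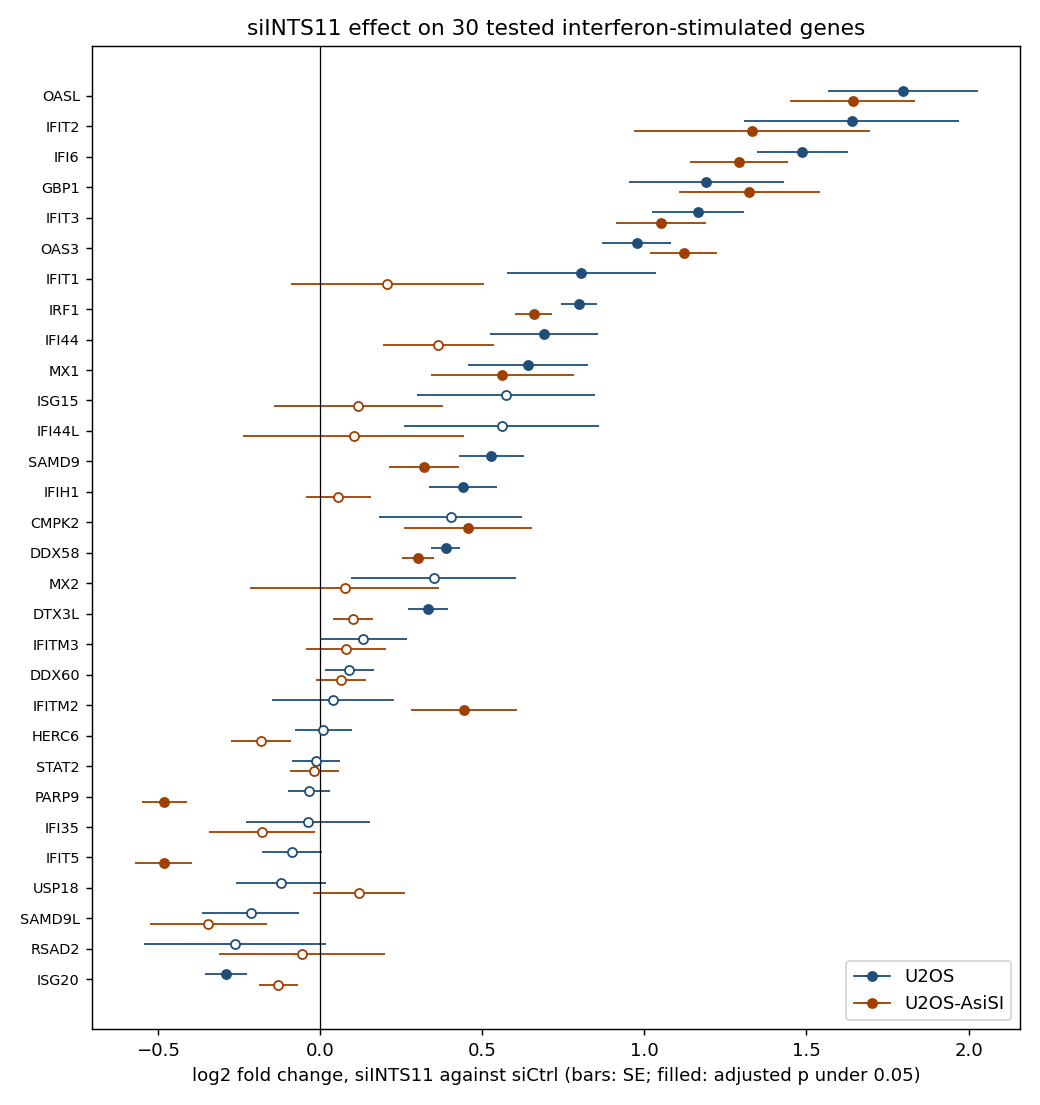
Log2 fold change of siINTS11 against siCtrl for the 30 tested genes, U2OS in blue and U2OS-AsiSI in brown, with bars of 1 standard error and filled points where the adjusted p was under 0.05. OASL, IFIT2, IFI6, GBP1, IFIT3 and OAS3 lie near or above 1 in both lines, while PARP9 and IFIT5 are near 0 in U2OS and at -0.48 in U2OS-AsiSI.

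Of 21 genes for interferons, the ligands that start the pathway, 0 passed the filter on low counts, so none was tested. IFNB1, encoding interferon beta, had 0 reads in 12 libraries under either siRNA. IFNG, encoding interferon gamma and picked out after its values were seen, had 13 reads in all: 0, 1 and 0 with siCtrl and 4, 2 and 2 with siINTS11 in U2OS, and 0, 0 and 0 against 2, 1 and 1 in U2OS-AsiSI. IFNE lies within the same-strand gene MIR31HG and could not be counted. Of the 9 receptor and kinase genes, 8 were tested, and 5 fell and 0 rose in each line. Over all genes tested, 32.4% fell and 34.5% rose in U2OS, and 32.6% fell and 35.4% rose in U2OS-AsiSI. IFNAR1, a chain of the type I receptor, fell from 57.0 ± 1.82 to 47.6 ± 1.39 CPM (SD, n = 3 per group) in U2OS (log2 fold change -0.29, edgeR adjusted p = 4.01e-07) and had a log2 fold change of -0.30 in U2OS-AsiSI (adjusted p = 2.58e-06). JAK1, a kinase bound to the receptor, changed by -0.17 and -0.19, and JAK2, the kinase of the interferon gamma receptor, by -0.27 and -0.31, all past the threshold. TYK2 did not pass (0.10 and 0.13, adjusted p = 0.164 and 0.0826). IFNAR2, the other receptor chain, lies within the same-strand gene AP000295.1 and could not be counted.

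Among the sensors, DDX58 rose in both lines, IFIH1 rose in U2OS, and DDX60 passed in neither. DDX58 (chr9:32455302-32526208, minus strand) encodes RIG-I, the sensor of RNA with a triphosphate end. It gave 44.3, 45.7 and 46.8 CPM in the U2OS siCtrl libraries and 63.1, 58.2 and 61.3 CPM after siINTS11, then 45.7, 46.4 and 46.9 against 59.1, 56.4 and 55.2 CPM in U2OS-AsiSI. The groups did not overlap in either line, and the fold changes were 1.31 (log2 0.39, SE 0.04, edgeR adjusted p = 4.7e-10) and 1.23 (log2 0.30, SE 0.05, adjusted p = 2.61e-06).

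IFIH1 (chr2:162267074-162318684, minus strand) encodes MDA5, the sensor of long double-stranded RNA. In U2OS it gave 4.88, 4.69 and 5.40 CPM with the control siRNA and 6.68, 6.12 and 7.89 CPM with siINTS11, a 1.36-fold rise (log2 0.44, SE 0.10, adjusted p = 0.000288). In U2OS-AsiSI they were 5.77, 5.39 and 5.67 against 6.04, 5.37 and 5.92, which overlap (log2 0.06, adjusted p = 0.635). The difference between these effects did not pass (-0.42, SE 0.14, adjusted p = 0.0954). DDX60, a helicase described as a cofactor of these sensors, had 13.9 ± 1.30 and 15.1 ± 1.20 CPM in U2OS and 12.4 ± 0.715 and 12.9 ± 0.919 CPM in U2OS-AsiSI (SD, n = 3; log2 0.09 and 0.06). Of the 12 other sensing and induction genes listed, 10 were tested. In U2OS 5 rose and 3 fell, and in U2OS-AsiSI 3 rose and 3 fell. The shares over all genes were 34.5% higher and 32.4% lower in U2OS, and 35.4% and 32.6% in U2OS-AsiSI. TRIM25, a ubiquitin ligase that acts with RIG-I, rose by log2 0.80 (SE 0.04) and 0.63 (SE 0.05), and the kinase gene IKBKE by 0.81 and 0.77. RNF135, another ligase for RIG-I, fell by 0.75 and 0.84 on the log2 scale.

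Of the transcription factor genes, IRF1 rose in both lines and STAT2 passed in neither. IRF1 (chr5:132481609-132490777, minus strand) encodes an activator of interferon-stimulated genes and is known for a GAS in its own promoter, the motif shown above. Its levels were 20.3, 19.3 and 18.3 CPM in U2OS siCtrl and 35.4, 34.2 and 33.2 CPM in U2OS siINTS11. U2OS-AsiSI cells had 25.1, 26.1 and 28.4 CPM with the control and 40.3, 42.9 and 42.0 CPM with siINTS11. Every siINTS11 library was above every siCtrl library of either line, with 1.74-fold (log2 0.80, SE 0.06, edgeR adjusted p = 3.6e-16) and 1.58-fold rises (log2 0.66, SE 0.06, adjusted p = 9.28e-12).

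STAT2 (chr12:56341597-56360167, minus strand), a subunit of the ISRE-binding complex, stayed within 11.7 to 13.0 CPM in all 12 libraries. Its group means were 12.4 ± 0.543 and 12.5 ± 0.495 CPM in U2OS and 12.5 ± 0.697 and 12.3 ± 0.331 CPM in U2OS-AsiSI (SD, n = 3), with log2 fold changes of -0.01 (SE 0.07, adjusted p = 0.904) and -0.02 (SE 0.07, adjusted p = 0.847). IRF7 had no reads and IRF9 was not measured, as given above.

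Both tested OAS genes rose in both lines. The OAS proteins make a small oligoadenylate that switches on RNase L, whereas OASL has lost that activity and binds RIG-I. OASL (chr12:121019111-121039242, minus strand) had the largest log2 fold change of the list in each line. It gave 0.510, 0.452 and 0.670 CPM under siCtrl and 1.36, 2.16 and 2.27 CPM under siINTS11 in U2OS, and 0.848, 0.815 and 0.548 against 2.13, 2.47 and 2.40 CPM in U2OS-AsiSI. The lowest siINTS11 library was thus above the highest siCtrl library of either line, and the rises were 3.48-fold (log2 1.80, SE 0.23, edgeR adjusted p = 7.51e-09) and 3.12-fold (log2 1.64, SE 0.19, adjusted p = 9.82e-09). The counts behind them are small, 14 to 26 reads per siCtrl library and 45 to 71 per siINTS11 library.

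OAS3 (chr12:112938444-112973251, plus strand), the synthetase most active on long double-stranded RNA, gave 3.75, 3.22 and 3.18 CPM and then 6.83, 6.77 and 6.71 CPM in U2OS. In U2OS-AsiSI it gave 3.63, 4.26 and 4.02 and then 8.28, 8.10 and 9.42 CPM. These are 1.97-fold (log2 0.98, SE 0.11, adjusted p = 1.24e-10) and 2.18-fold rises (log2 1.12, SE 0.10, adjusted p = 6.32e-11). Its neighbours OAS1 and OAS2 on the same strand of chromosome 12 stayed near-silent, with at most 14 and 6 reads in any library, so that of the 3 adjacent genes only OAS3 had enough reads to test in the siINTS11 comparisons.

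The 4 IFIT genes, which lie within 1 stretch of chromosome 10 on the plus strand, did not move as 1 unit. IFIT proteins bind viral RNA by its 5′ end and hold back its translation. IFIT3 (chr10:89327997-89340971) gave 2.08, 1.84 and 1.45 CPM under siCtrl and 3.66, 4.42 and 4.25 CPM under siINTS11 in U2OS, and 1.97, 1.82 and 1.68 against 3.95, 3.61 and 3.73 CPM in U2OS-AsiSI. It rose 2.24-fold (log2 1.17, SE 0.14, edgeR adjusted p = 1.77e-09) and 2.07-fold (log2 1.05, SE 0.14, adjusted p = 7.8e-08), with no overlap. IFIT2 (chr10:89283694-89309271) was higher 3.11-fold (log2 1.64, SE 0.33, adjusted p = 3.68e-05) and 2.52-fold (log2 1.33, SE 0.36, adjusted p = 0.00192), from 5 to 8 reads in every siCtrl library to 12 to 27 in the siINTS11 libraries. Since it passed the filter only through the latter, these values are a description. It shares part of its span with the same-strand gene AL353751.1, which leaves 17217 of 25578 bases to be counted.

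IFIT1 (chr10:89392546-89406487) had 0.692, 0.650 and 0.564 CPM and then 1.06, 1.34 and 1.02 CPM in U2OS, a 1.75-fold rise (log2 0.81, SE 0.23, adjusted p = 0.00215). In U2OS-AsiSI its libraries overlapped, at 0.509, 0.595 and 0.366 against 0.734, 0.484 and 0.479 CPM (log2 0.21, SE 0.30, adjusted p = 0.549). IFIT5 (chr10:89414568-89420997), the member that binds RNA with a triphosphate end, had 8.78, 7.46 and 7.30 against 7.46, 7.16 and 7.92 CPM in U2OS, which overlap (log2 -0.09, SE 0.09, adjusted p = 0.413). In U2OS-AsiSI it fell from 9.50, 9.49 and 10.4 CPM to 7.44, 6.43 and 6.99 CPM, with no overlap (log2 -0.48, SE 0.09, adjusted p = 2.12e-05).

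Of the large GTPases on the list, GBP1 and MX1 rose. GBP1 (chr1:89052319-89065230, minus strand), a guanylate-binding protein that coats intracellular pathogens and is induced most by interferon gamma, gave 0.765, 0.481 and 0.423 CPM and then 1.45, 1.18 and 1.21 CPM in U2OS. In U2OS-AsiSI it gave 0.475, 0.721 and 0.658 and then 1.47, 1.54 and 1.64 CPM. The groups did not overlap, and the rises were 2.28-fold (log2 1.19, SE 0.24, edgeR adjusted p = 2.97e-05) and 2.50-fold (log2 1.32, SE 0.22, adjusted p = 3.68e-06).

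MX1 (chr21:41420304-41459214, plus strand), which blocks influenza and other viruses, gave 0.984, 1.22 and 1.16 CPM and then 2.09, 1.60 and 1.69 CPM in U2OS (log2 0.64, SE 0.18, adjusted p = 0.00228). In U2OS-AsiSI it gave 0.848, 1.13 and 1.35 against 1.05, 1.85 and 2.02 CPM, where replicate 1 of siINTS11 lies within the siCtrl range (log2 0.56, SE 0.22, adjusted p = 0.0258). That call ended with DESeq2 (adjusted p = 0.0944) and without siCtrl replicate 1 (0.0946), siINTS11 replicate 2 (0.0713) or siINTS11 replicate 3 (0.246). MX2, which blocks HIV at nuclear entry, passed in neither line (log2 0.35 and 0.08), but did in U2OS without siCtrl replicate 2 (0.74, adjusted p = 0.0307).

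Of the other direct effectors, SAMD9 (chr7:93099513-93118023, minus strand), a restriction factor of poxviruses, rose from 4.73 ± 0.45 to 7.01 ± 0.153 CPM (SD, n = 3) in U2OS (log2 0.53, SE 0.10, adjusted p = 1.24e-05) and from 4.69 ± 0.485 to 5.79 ± 0.38 CPM in U2OS-AsiSI (log2 0.32, SE 0.11, adjusted p = 0.0101). The second call ended with DESeq2 (0.0649) and without siCtrl replicate 2 (0.0951). Its adjacent paralogue SAMD9L passed in neither line, with log2 fold changes of -0.21 (adjusted p = 0.21) and -0.34 (adjusted p = 0.0899), although it was lower in U2OS-AsiSI without siCtrl replicate 2 (adjusted p = 0.0234) or siINTS11 replicate 2 (0.0468).

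CMPK2 and RSAD2 stand side by side on chromosome 2 on opposite strands. RSAD2 encodes viperin, which makes a chain-terminating nucleotide, and CMPK2 is a nucleotide kinase. CMPK2 had 0.882, 1.16 and 1.32 CPM and then 1.33, 1.72 and 1.58 CPM in U2OS-AsiSI, which pass narrowly (log2 0.46, SE 0.20, edgeR adjusted p = 0.0406), and 0.905 ± 0.30 against 1.24 ± 0.148 CPM (SD, n = 3) in U2OS (log2 0.40, adjusted p = 0.103). The first call ended with no count filter (0.0685), with DESeq2 (0.158) and without siCtrl replicate 1 (0.188), siCtrl replicate 2 (0.0597), siINTS11 replicate 2 (0.129) or siINTS11 replicate 3 (0.108), and in U2OS the gene passed without siCtrl replicate 2 (0.0328). RSAD2 had log2 fold changes of -0.26 (SE 0.28) and -0.06 (SE 0.25), neither past the threshold. ISG20 (chr15:88636153-88656483, plus strand), an exonuclease of single-stranded RNA, was the 1 gene that fell in U2OS, from 22.6, 24.7 and 22.4 CPM to 20.4, 17.4 and 20.5 CPM (log2 -0.29, SE 0.06, adjusted p = 0.000133). Its value in U2OS-AsiSI was -0.13 (adjusted p = 0.062), which passed with median-of-ratios size factors (-0.15, adjusted p = 0.0321) and with the replicate block (-0.13, adjusted p = 0.0484) and was 0.062 on library totals. The U2OS call ended on library totals (-0.09, adjusted p = 0.238).

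IFI6 (chr1:27666064-27672198, minus strand), an effector against flaviviruses, had the third largest log2 fold change of the list in U2OS. It gave 1.79, 1.47 and 1.62 CPM under siCtrl and 4.50, 5.30 and 4.09 CPM under siINTS11, a 2.80-fold rise (log2 1.49, SE 0.14, edgeR adjusted p = 2.17e-12). In U2OS-AsiSI it rose 2.45-fold, from 1.36, 1.88 and 1.97 to 3.84, 3.96 and 4.86 CPM (log2 1.29, SE 0.15, adjusted p = 7.69e-09). The lowest siINTS11 library was above the highest siCtrl library of either line. IFI44 rose in U2OS from 1.36 ± 0.242 to 2.27 ± 0.0222 CPM (log2 0.69, SE 0.17, adjusted p = 0.000353). Its value in U2OS-AsiSI was 0.37 (SE 0.17, adjusted p = 0.0587). It passed in 3 of 12 alternatives: on library totals, with genes above 0.1 reads per base left out, and without siCtrl replicate 3 (0.49, adjusted p = 0.0216). The adjacent IFI44L (log2 0.56 and 0.10) and IFI35 (-0.04 and -0.18) passed in neither line.

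**Figure D3:**
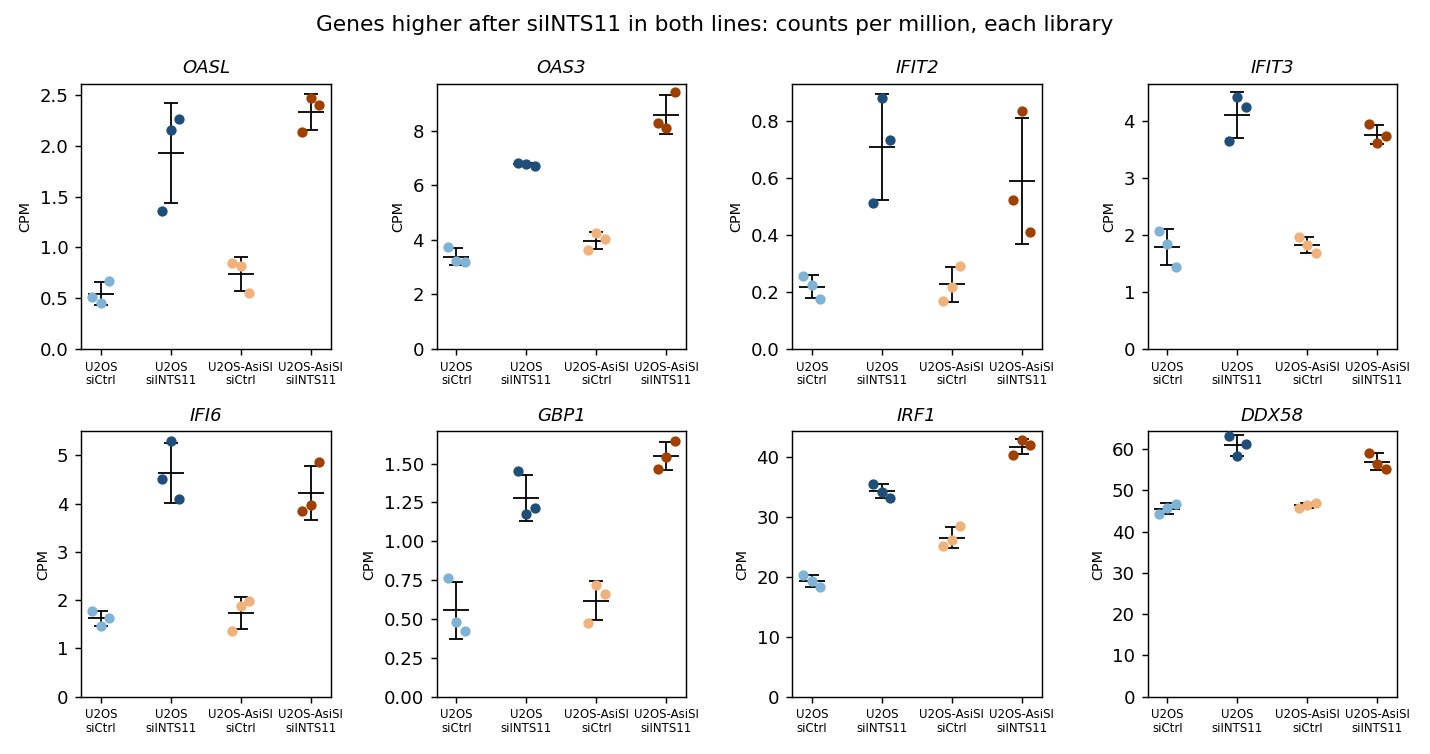
CPM (TMM-scaled over 12 libraries) of 8 genes that rose after siINTS11 in both lines, with each axis starting at 0. Points are libraries, and the black marks give the mean and SD of the 3 libraries in a group. In each panel the siINTS11 points lie above the siCtrl points of the same line, for OASL at 1.36 to 2.47 CPM against 0.452 to 0.848.

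IFITM proteins stop viruses from fusing with the cell's membranes; IFITM2 rose in U2OS-AsiSI and IFITM3 passed in neither line. IFITM3 gave 2.58 ± 0.0647 and 2.89 ± 0.193 CPM in U2OS and 3.44 ± 0.0668 and 3.60 ± 0.319 CPM in U2OS-AsiSI (SD, n = 3; log2 0.13 and 0.08, adjusted p = 0.387 and 0.572). IFITM2 gave 1.493, 1.504 and 1.535 CPM and then 1.85, 2.20 and 2.12 CPM in U2OS-AsiSI (log2 0.44, SE 0.16, edgeR adjusted p = 0.0175), and 1.39 ± 0.177 against 1.46 ± 0.294 CPM in U2OS (log2 0.04, adjusted p = 0.857). The call in U2OS-AsiSI ended with DESeq2 (0.105) and without siINTS11 replicate 2 (0.0607) or replicate 3 (0.0593). The 3 IFITM genes are near-identical in parts, so reads may have been split among them.

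No tested gene of the ISG15 system passed in either line. ISG15, the ubiquitin-like protein that gives the system its name, had 0.510, 0.424 and 0.423 CPM and then 0.665, 0.785 and 0.607 CPM in U2OS, which do not overlap but rest on 12 to 24 reads (log2 0.57, SE 0.27, edgeR adjusted p = 0.0629). In U2OS-AsiSI it had 0.624 ± 0.0929 and 0.676 ± 0.0638 CPM (SD, n = 3; log2 0.12, adjusted p = 0.714). USP18, the protease that removes ISG15 and a brake on the receptor, had log2 fold changes of -0.12 and 0.12 (adjusted p = 0.457 and 0.462). HERC6 had 0.01 and -0.18 (adjusted p = 0.92 and 0.0856), and HERC5 was silent. On library totals in U2OS, ISG15 (log2 0.77, adjusted p = 0.0124) and HERC6 (0.21, adjusted p = 0.0388) did pass.

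PARP9 and DTX3L start next to each other on chromosome 3 and are read in opposite directions, with 240 bases of their spans in common on opposite strands. Their products, an ADP-ribosyltransferase-like protein and a ubiquitin ligase, form 1 complex that acts in interferon signalling and at DNA damage. PARP9 (chr3:122527924-122564577, minus strand) had 17.6, 20.2 and 19.1 CPM under siCtrl and 18.2, 18.8 and 19.9 CPM under siINTS11 in U2OS, which overlap (log2 -0.03, SE 0.06, edgeR adjusted p = 0.651). In U2OS-AsiSI it fell from 16.3, 16.5 and 16.2 CPM to 11.5, 11.4 and 12.1 CPM, to 0.717 of the siCtrl level (log2 -0.48, SE 0.07, adjusted p = 5.12e-07). The 3 libraries of U2OS-AsiSI with siINTS11 were the lowest of the 12.

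DTX3L (chr3:122564338-122575203, plus strand) rose in U2OS, where PARP9 did not pass, from 18.5, 17.4 and 16.6 to 22.5, 23.0 and 21.9 CPM (log2 0.33, SE 0.06, adjusted p = 1.06e-05). In U2OS-AsiSI it had 18.7, 19.8 and 20.1 and then 21.0, 20.5 and 21.2 CPM (log2 0.10, SE 0.06, adjusted p = 0.146). That value passed under 2 alternatives, library totals (0.29, adjusted p = 0.000366) and the stricter count filter of 50 reads on average (0.15, adjusted p = 0.0272).

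**Figure D4:**
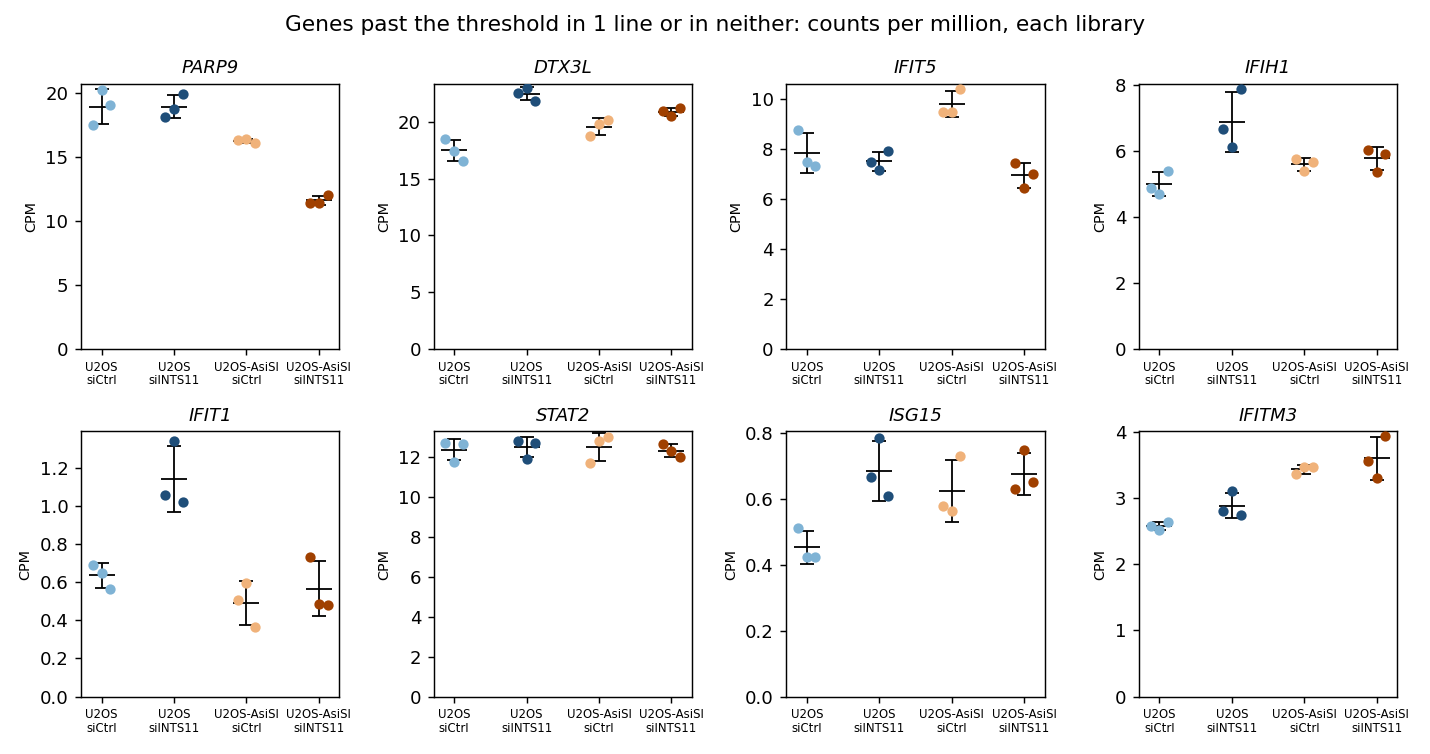
CPM (TMM-scaled over 12 libraries) of 8 genes that rose in 1 line only, fell in 1 line only or passed in neither, with each axis starting at 0. Points are libraries, and the black marks give the mean and SD of 3. The 3 PARP9 points of U2OS-AsiSI siINTS11 lie at 11.4 to 12.1 CPM and those of the other groups at 16.2 to 20.2, while STAT2 stays at 11.7 to 13.0 CPM throughout.

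Whether the siINTS11 effect differed between the lines was tested directly, as the interaction of siRNA and line over 12 libraries. Of 31 genes of the list tested (OAS1 passed the count filter here), 2 had a lower effect in U2OS-AsiSI and 0 a higher one, against 3.1% and 0.762% of all genes. PARP9 differed by -0.48 (SE 0.09, edgeR adjusted p = 0.00346), and by at least 0.41 in size under each of 19 alternatives (adjusted p from 0.00181 to 0.0217). IFIT5 differed by -0.43 (SE 0.13, adjusted p = 0.046), which passed in 2 of 19 alternatives, with adjusted p from 0.0274 to 0.192. IFIH1 (-0.42, adjusted p = 0.0954) and DTX3L (-0.27, adjusted p = 0.0637) did not pass, nor did IFIT1 (-0.63, SE 0.37, adjusted p = 0.373), so the genes called in 1 line alone, PARP9 and IFIT5 apart, were not shown to differ between lines. The median difference of the list was -0.17, beside -0.05 for all genes.

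The control groups of both lines were also compared, U2OS-AsiSI with its OHT against U2OS. Of 29 genes tested, 4 were higher and 1 lower, against 17.8% and 17.2% of all genes (34.9% in either direction). The list's median was 0.12, beside 0.01 over all genes. IFIT2 had too few reads to be tested here. IRF1 was 1.38-fold higher (19.3 ± 0.974 against 26.5 ± 1.70 CPM, SD, n = 3; log2 0.46, SE 0.06, edgeR adjusted p = 1.13e-06) and IFIT5 1.25-fold higher (7.85 ± 0.81 against 9.80 ± 0.531 CPM; log2 0.33, SE 0.09, adjusted p = 0.00523). IFITM3 (log2 0.42, adjusted p = 0.013) and IFI35 (0.46, adjusted p = 0.0421) were also higher, and PARP9 was lower (-0.22, SE 0.07, adjusted p = 0.0123). This comparison shares its U2OS-AsiSI siCtrl libraries with the siINTS11 comparison in that line, so the higher IFIT5 here and its fall there are not independent.

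Leaving out U2OS siCtrl replicate 2 ended the siCtrl calls of IFITM3 (adjusted p = 0.05), IFI35 (0.0744) and PARP9 (0.117) and left 2 genes called. Of all 20227 genes tested, 5703 were then called. IFI35 also lost its call without U2OS siCtrl replicate 1 (0.162), U2OS-AsiSI siCtrl replicate 1 (0.213) or replicate 3 (0.0665). DESeq2 gave 3 calls among 20 genes, without IFITM3 (0.0645) and IFI35 (0.132), against 5507 of all 16070 genes. PARP9 lost its call on library totals (0.0912).

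Beyond the list, 50 other interferon-stimulated genes were examined, of which 42 were tested. In U2OS 21 rose and 12 fell, and in U2OS-AsiSI 23 rose and 11 fell, with medians of 0.20 and 0.17 on the log2 scale. The shares of all genes were 34.5% higher and 32.4% lower in U2OS and 35.4% and 32.6% in U2OS-AsiSI. Some genes passed the count filter only through the siINTS11 libraries, as IFIT2 did, so they had to differ. In U2OS, RTP4 had 7, 6 and 7 reads against 22, 22 and 23, and UBA7 7, 12 and 4 against 21 in each. In U2OS-AsiSI, TMEM140 had 5, 5 and 4 against 15, 10 and 16. Counts of these genes were low in the other line too. TMEM140 had 10, 10 and 6 against 14, 12 and 18 in U2OS. RTP4 had 11, 4 and 11 against 18, 11 and 19 in U2OS-AsiSI, and UBA7 15, 8 and 6 against 25, 14 and 20. When the siCtrl groups were compared, 39 of the 50 were tested. The counts and medians include such genes and are a description. PARP12, an antiviral ADP-ribosyltransferase, gave 21.1 ± 0.896 and 43.3 ± 0.447 CPM in U2OS (SD, n = 3; log2 1.01, SE 0.05, edgeR adjusted p = 1.14e-20) and 20.1 ± 0.742 and 37.8 ± 1.75 CPM in U2OS-AsiSI (log2 0.92, SE 0.06, adjusted p = 7.59e-15). LGALS3BP, a secreted lectin-binding protein, rose by log2 0.96 and 0.88, and the nuclear body gene SP110 by 0.92 and 0.64. HELZ2, a helicase gene, rose by 0.55 and 1.03, and its effect was the larger in U2OS-AsiSI (difference 0.44, adjusted p = 0.0291). Of the 43 such genes tested for that difference it was the 1 higher, and 2 were lower, against 0.762% and 3.1% of all genes. The lower ones, IFI16 (-0.21, adjusted p = 0.0453) and TRIM22 (-0.49, adjusted p = 0.00586), are named after their values were seen, as is IFNGR1 of the receptor list (-0.26, adjusted p = 0.0246). TRIM25 of the sensing list was lower too (-0.21, adjusted p = 0.0468). Among the falls, also picked afterwards, were NMI, a partner of STAT proteins, at -0.27 and -0.54, and IFI16, a DNA sensor, at -0.13 and -0.31.

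Among 9 feedback inhibitors, all tested, 4 rose and 3 fell in U2OS and 2 rose and 2 fell in U2OS-AsiSI. Of all genes tested, 34.5% rose and 32.4% fell in U2OS, and 35.4% rose and 32.6% fell in U2OS-AsiSI. SOCS1, which blocks the JAK kinases and is a target of the pathway, went from 2.91 ± 0.541 to 5.59 ± 0.653 CPM in U2OS (SD, n = 3; log2 0.89, SE 0.12, edgeR adjusted p = 4.57e-08) and from 3.24 ± 0.352 to 7.09 ± 0.557 CPM in U2OS-AsiSI (log2 1.13, SE 0.11, adjusted p = 3.83e-10). PIAS1, a SUMO ligase that restrains the pathway, fell by 0.36 and 0.42 on the log2 scale, and the phosphatase gene PTPN11 by 0.26 and 0.25.

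The 41 genes of the list, untested ones included, had a median span of 18.6 kb (1.77 to 105.88 kb). The median of all genes tested in U2OS was 31.4 kb. IFITM1 and EPSTI1, at the ends of that range, were not tested, and the tested genes of the list ran from 6.14 kb (IFI6) to 102.51 kb (DDX60). Across the 30 tested genes, span and log2 fold change had a Spearman rho of -0.133 in U2OS and -0.166 in U2OS-AsiSI. This is given as a description over genes that share their libraries, and genes are not independent replicates.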

How the data were processed

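The authors deposited raw read counts per gene, whole numbers in the featureCounts layout per the file headers, in tables that hold 1 library of each line. Reads were trimmed with Trimmomatic 0.36, aligned with STAR 2.7 and counted with featureCounts on hg38, per the submitters' processing notes. The labels' protocols describe directional libraries and labelled yeast RNA added before fragmentation; the yeast reads were not analysed here. Each gene's length equals its span, so introns were counted. All count columns matched a sample, and 0 were left out.

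Testing used the quasi-likelihood functions of edgeR 4.0.16 (R 4.3.3) after filterByExpr and TMM, with robust dispersion estimates, on the 6 libraries of a comparison or on all 12 for the interaction. Tests were two-sided, with Benjamini-Hochberg adjustment over every gene tested and a threshold of 0.05; an SE is |log2 fold change| divided by the root of F. The procedure was tested on simulated data in which 200 genes were changed, far fewer than were called after siINTS11. That test cannot check the TMM scaling under so broad a change. As alternatives, the size factors were replaced by median-of-ratios factors or by library totals, the filter was dropped or raised to a mean count of 50, genes above 0.1 reads per base were left out, the replicate number was added as a block, DESeq2 1.42.0 was run, and single libraries were left out. Figures were drawn with matplotlib 3.10.9.

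The members, gene lists and rules were chosen with earlier results of these data known. Described singly are genes past the threshold in either siINTS11 comparison, all sensors, STAT and IRF genes and near-silent genes; outside the list, INTS11, IFNB1, IFNAR1, IFNAR2, JAK1, TYK2 and up to 3 genes per list with the smallest adjusted p. Other genes of the list were named to account for each member. A gene named by this rule is not reported here.

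Depth was 20704611 to 38065726 counts per library. Counts of replicates differed by more than sampling noise (chi-square per degree of freedom 1.90 to 3.15). Reads carry no molecular identifiers that are stated, so limits for a count of 0 cover counting error only. The labels do not say that replicates were separate cultures, so p-values measure only the spread between these samples, which may be technical.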

Additional observations from a re-analysis of the deposited data

Results flagged for a closer look

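The siINTS11 effect on PARP9 differed between the lines by -0.48 on the log2 scale (SE 0.09, edgeR adjusted p = 0.00346 for the interaction of siRNA and line): PARP9 was lower in 3 of 3 U2OS-AsiSI siINTS11 libraries than in any other library, while its siRNA groups overlapped in U2OS.

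The effect on IFIT5 differed by -0.43 (SE 0.13, edgeR adjusted p = 0.046), which passed in 2 of 19 alternatives (adjusted p from 0.0274 to 0.192), where PARP9 passed in 19 of 19. Its siINTS11 libraries were below the siCtrl libraries in U2OS-AsiSI and overlapped them in U2OS. The U2OS-AsiSI siCtrl libraries, which enter this difference, were also those in which IFIT5 was highest, at 9.80 ± 0.531 CPM (SD, n = 3).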

How the results depend on the processing

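All 14 genes that rose in U2OS kept their call in each alternative that tested them, and ISG20 did not. Of the 14 genes called in U2OS-AsiSI, 10 kept it and CMPK2, IFITM2, MX1 and SAMD9 did not. With a mean count of at least 50, which tests 18 genes, 9 genes were called in U2OS-AsiSI, against 11180 of all 15469 genes tested. The median in U2OS with that filter was 0.27, beside 0.01 over all genes. On library totals the medians were 0.31 in U2OS-AsiSI and 0.59 in U2OS. The further rises called on that scale were DDX60, DTX3L, IFI44 and IFIH1 in U2OS-AsiSI. In U2OS they were CMPK2, DDX60, HERC6, IFI44L, IFITM3, ISG15, PARP9 and STAT2. Leaving out 1 library gave 11 to 15 calls in U2OS-AsiSI (median 0.09 to 0.23) and 15 to 17 in U2OS (0.36 to 0.47, the highest without U2OS siCtrl replicate 2). Over all genes, 12705 to 13777 were then called in U2OS-AsiSI, of 20766 to 20893 tested. In U2OS it was 12884 to 13916, of 20994 to 21181 tested. The siCtrl comparison had 5 calls, 3 with DESeq2 and 2 to 5 with 1 library left out. Over all genes it had 6963 of 19935, 5507 of 16070 with DESeq2, and 5341 to 7016 with 1 library left out. The interaction had 2 calls, and 1, PARP9, in each setting other than leaving out 1 library, which gave 1 to 2. Over all genes the interaction had 832 calls of 21521 tested, 423 to 670 in those other settings, and 286 to 946 with 1 library left out. The longer ISRE, with CT after the core, was in 44.1% of the 34 windows, against 0.273% of all.

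Values that had not passed changed sign as follows; the cause was not tested. On library totals in U2OS-AsiSI, RSAD2 was at 0.13, HERC6 at 0.0085, STAT2 at 0.17, ISG20 at 0.062 and IFI35 at 0.0098, and in U2OS, PARP9 was at 0.16 (adjusted p = 0.0333), IFIT5 at 0.11, STAT2 at 0.19 (adjusted p = 0.0326), IFI35 at 0.16 and USP18 at 0.0795. With a mean count of at least 50, STAT2 was at 0.0348 in U2OS-AsiSI and 0.0307 in U2OS, and PARP9 at 0.0073 in U2OS, and with at most 0.1 reads per base STAT2 was at 0.0099 in U2OS-AsiSI and 0.0009 in U2OS. HERC6 in U2OS was at -0.0036 with median-of-ratios size factors and -0.0024 with DESeq2. With 1 library left out, values in U2OS-AsiSI ran from -0.183 to 0.380 for IFI44L, -0.224 to 0.191 for RSAD2, -0.0376 to 0.377 for IFIT1, -0.0578 to 0.005 for STAT2 and -0.139 to 0.384 for MX2. In U2OS they ran from -0.0794 to 0.0291 for PARP9, -0.061 to 0.0716 for HERC6, -0.129 to 0.0021 for IFIT5, -0.137 to 0.154 for IFITM2, -0.0396 to 0.0224 for STAT2, -0.243 to 0.156 for IFI35 and -0.182 to 0.023 for USP18.

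The labels do not state whether the numbers of the replicates pair the samples. Same-numbered libraries of 2 groups correlated at -0.173 to 0.223 in their deviations from the group means, which cannot settle it with 3 libraries per group. With the replicate block, 15 genes were called in each line against 14 in U2OS-AsiSI and 15 in U2OS, 5 against 5 in the siCtrl comparison, and 1 against 2 in the interaction. Over all genes the block gave 14172 calls of 20441 in U2OS-AsiSI and 13700 of 20687 in U2OS. It gave 6421 of 19935 in the siCtrl comparison and 531 of 21521 in the interaction.

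Few reads limit IFIT2, IFI44L, ISG15, RSAD2, IFIT1, MX2, GBP1, CMPK2 and OASL, among others.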
